A study of Mus musculus with 18 samples.

Results

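The small RNA retained by the 3'UTR of MRTF-A was compared with that retained by an MS2 control in differentiated C2C12 cells. The comparison takes the 3 MRTF-A bait libraries and the 3 MS2 control libraries of the differentiated state, chosen by the names of their columns, which are 6 of the 18 libraries of the series. All 2042 miRNA names in the table were used, and 909 of them had a read in these 6 eluates. C2C12 is a mouse myoblast line that forms contracting myotubes when serum is lowered. All 18 libraries come from this line, and the labels give no genotype or drug. Per the labels, growth medium held 10% fetal calf serum, and differentiation lasted 7 days in medium with 2% horse serum. The same treatment text stands on the undifferentiated samples, so the state was read from the titles. Both eluate groups come from the same affinity method, in which an RNA with MS2 hairpins is held on amylose resin by a fusion of maltose-binding protein with MS2 coat protein. The bait carries the MRTF-A 3'UTR, and its exact extent is not given in the sources used here. Further groups are input RNA of the same state and the same 3 kinds of library from undifferentiated cells. Nothing in the labels says that the 3 libraries of a group are separate cultures, so p-values measure the spread between libraries, which may be technical. Libraries are lettered A, B and C by the endings of their column names.

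MRTF-A, encoded by Mrtfa, is an actin-regulated coactivator of serum response factor and drives cytoskeletal and muscle genes. A miRNA guides an Argonaute protein to transcripts, mainly by pairing its seed, bases 2 to 8 from its 5′ end, with sites that often lie in 3'UTRs. Each hairpin precursor gives a 5p and a 3p arm, and usually one of them is loaded while the other is degraded. The MS2 control measures the small RNA that the resin and the hairpins hold when no 3'UTR is attached.

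The mature sequences that the results turn on are printed 5′ to 3′ with the seed in capitals, from the RefSeq tables of GRCm38.p6. The first 5 are let-7 and miR-98 members, a family that was higher with the bait throughout.
let-7g-5p: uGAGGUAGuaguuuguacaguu
let-7a-5p: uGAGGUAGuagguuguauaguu
let-7f-5p: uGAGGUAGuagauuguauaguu
let-7d-5p: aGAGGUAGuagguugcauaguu
miR-98-5p: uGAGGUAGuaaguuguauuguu
The next 6 were also higher with the bait. They are a muscle miRNA, miR-31-5p, 2 members of the miR-34 family with 1 seed, miR-24-3p and the 5p arm of the miR-199a hairpin.
miR-206-3p: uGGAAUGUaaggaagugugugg
miR-31-5p: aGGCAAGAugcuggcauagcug
miR-34b-5p: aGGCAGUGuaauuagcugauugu
miR-34a-5p: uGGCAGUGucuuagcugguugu
miR-24-3p: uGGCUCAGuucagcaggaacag
miR-199a-5p: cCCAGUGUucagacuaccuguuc
The last 6 were lower with the bait. They are the 3p arm of the same miR-199a hairpin, 3 members of the miR-99 and miR-100 family with 1 seed, miR-615-3p and miR-423-3p.
miR-199a-3p: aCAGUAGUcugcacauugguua
miR-99a-5p: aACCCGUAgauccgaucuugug
miR-99b-5p: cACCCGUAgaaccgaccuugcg
miR-100-5p: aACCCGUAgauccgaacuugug
miR-615-3p: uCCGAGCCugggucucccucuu
miR-423-3p: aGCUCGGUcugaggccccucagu

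The bait libraries held 413574, 544504 and 306483 reads and the control libraries 22586, 23433 and 15562, so the control was the shallower side. Values are CPM, reads scaled by the authors to an effective library size, and 1 read was worth 3.33 to 5.14 CPM in the bait and 27.1 to 34.3 CPM in the control. The scaling factors were 0.551 to 0.634 for the bait and 1.24 to 2.37 for the control, so the scaling differs between the sides compared. Human-named miRNAs took 0.930% and 0.755% of the reads of control libraries A and B and 0.0900% of those of C, and library C stood apart from both, by a chi-square of 39.6 and 35.5 per degree of freedom over 104 and 107 names. Control libraries A and B differed from each other by a chi-square of 3.90 per degree of freedom over 96 names, and the bait libraries by 35.9 to 58.6, so no pair agreed within sampling noise. The muscle label was checked on the input, where the 8 striated muscle miRNAs of the marker list summed to 92358 to 115568 CPM per library, against 4862 to 11273 CPM in undifferentiated input, and none was at 0. Of the 6 blood markers, 4 were at 0 in the differentiated input and all 6 in the eluates, and the liver marker miR-122-5p was at 0 in all of them. Neural markers summed to at most 116 CPM in that input and epithelial markers to at most 43.2 CPM, while 4 endothelial and smooth muscle markers summed to 23202 to 52914 CPM, with both miR-126a arms at 0 and miR-143-3p at 48850.5, 52759.9 and 23079 CPM. These are bulk samples, in which more cells of a type and more RNA per cell cannot be told apart.

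Most miRNAs that could be tested differed between bait and control. Of 169 names that passed a filter on low reads, 97 (57.4%) were higher with the bait and 37 (21.9%) were lower, together 79.3%, by limma on log2(CPM + 10) with Benjamini-Hochberg adjustment over the 169 at 0.05. Of the 97, 96 had all 3 bait libraries above all 3 control libraries, as did 58.6% of the names tested. Of the 37, 34 had all 3 bait libraries below the control, as did 20.7%. The median log2 fold change over the 169 was 2.37, and 1.58 with names of 0 reads on one side placed at their bound. Names that passed the filter only through the bait reads had to differ: 20 of the 97 had no control read, and a further 19 had 1 to 3. Of the 37, 3 had no bait read and could not be higher. Where a side had 0 reads, the fold is a lower bound that sets that side to 3 reads in each library. Where it had 1 to 3, pooled reads give a ratio with a 95% counting interval. Bounds and intervals cover counting error only. Log2 fold changes carry their standard error with n = 3 against 3, and they understate the change of low names.

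The split depended on the scaling. With library totals in place of the authors' factors, 73 were higher and 49 lower and the median fell by 1.18 on the log2 scale, to 1.18. With edgeR on recovered reads the split was 95 (56.2%) and 38 (22.5%), together 78.7%. With DESeq2 it was 91 (53.8%) and 37 (21.9%), together 75.7%, with RLE factors 89 and 42 and with TMM factors of the eluates 97 and 36. Under all 6 of these, 104 names were called in the same direction, 70 higher and 34 lower, and none was called in opposite directions. The authors' deposited table listed 160 names for this comparison, 108 higher and 52 lower. Of the 134 called here, 124 were listed there with the same sign, 10 were not listed and 0 had the other sign.

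**Figure D1:**
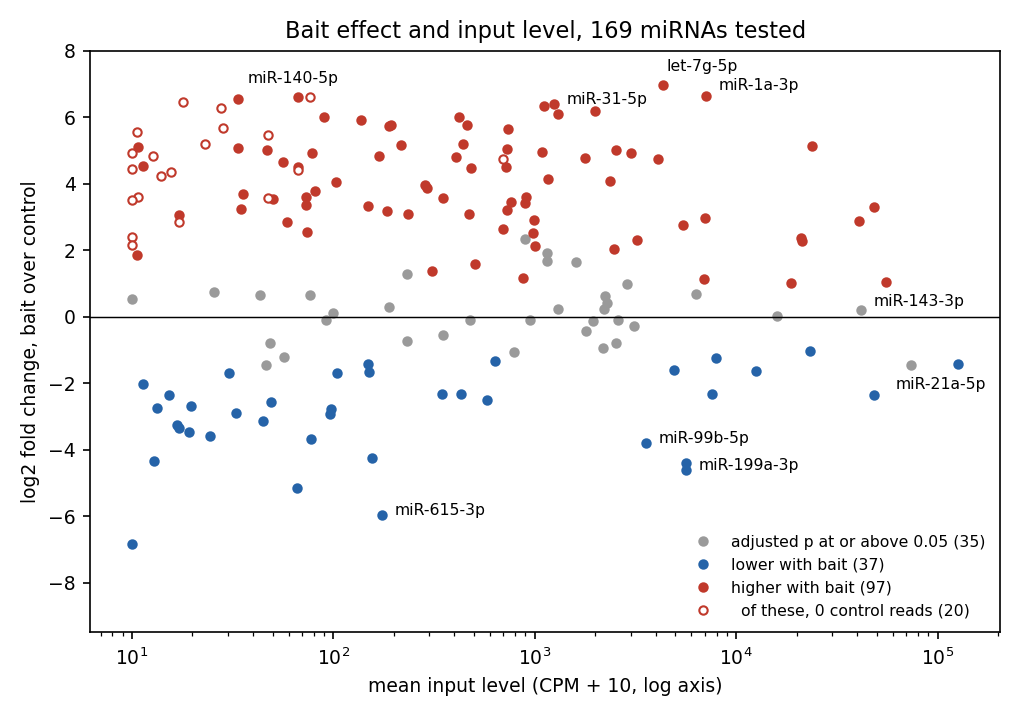
Log2 fold change of bait over control (vertical axis) against the mean level in differentiated input (CPM + 10, log axis) for the 169 miRNAs tested, with 97 higher in red, 37 lower in blue and 35 others in grey; open symbols had 0 control reads. Both directions are seen at low and at high input levels, and miR-21a-5p, the most abundant in the input, lies below 0.

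Abundant miRNAs of the input were found on both sides. Over the 169 names the log2 input level and the log2 fold change had r = -0.046 and rho = -0.062, given as a description across miRNAs, which share libraries and are not replicates. The 20 most abundant miRNAs of the input held 80.1 to 82.4% of its reads, and 10 of them were higher with the bait, 6 lower and 3 neither, while 1 was not tested. These counts are near the 57.4% and 21.9% of all names tested. miR-21a-5p, abundant in many growing cells, took 18.4, 16.3 and 15.3% of input libraries A, B and C. It was at 2237, 2235 and 1980.1 CPM in bait libraries A, B and C and 5213, 6008 and 6066 CPM in the control libraries, lower in every bait library (-1.42 ± 0.30, adjusted p = 9.92e-04). miR-143-3p, which serum response factor is known to induce in smooth muscle, was at 4019.6, 4604 and 4433 CPM in bait libraries A, B and C and 3188, 3879.5 and 4333 CPM in the control libraries, and these groups overlapped (0.20 ± 0.25, adjusted p = 0.466). With library totals it was called lower, at -1.24 (adjusted p = 0.0141). miR-22-3p, a miRNA of striated muscle, was at 10999, 11910.4 and 14339 CPM in bait libraries A, B and C and 4184, 6317 and 8097 CPM in the control libraries (1.04 ± 0.30, adjusted p = 0.00684), and the call did not hold with library totals, at -0.40 (adjusted p = 0.452), or with RLE factors, at 0.38 (adjusted p = 0.212).

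A few names took most of the eluate reads. In the bait, 20 names held 89.6 to 89.7% of the reads. miR-1a-3p alone took 30.8, 33.7 and 34.1% of bait libraries A, B and C, against 0.655, 0.862 and 1.29% of the control and 0.964, 0.741 and 1.13% of the input. In the control, the 5 leading names held 66.8 to 85.4% of the reads. miR-6244 led every control library with 45.5, 43.2 and 33.5% and still took 8.72, 4.19 and 4.32% of the bait. Its log2 fold change was -1.45 ± 0.68, adjusted p = 0.0659, and it passed with each of the 5 other scalings and tools, for example at -1.46 (adjusted p = 0.0362) with edgeR. miR-615-3p was second in the control with 30.1, 28.9 and 14.1%, and its levels are given with the lower names. miR-6240 and miR-6241, also among the 5 leading names of the control, were lower (-2.33 ± 0.40 and -2.36 ± 0.45). Of 23 mouse names numbered 5000 and above, which are late entries of the miRNA registry, 4 were higher and 11 lower, with a median of -1.23. Of the 141 other mouse names 93 were higher and 21 lower, with a median of 2.97. Over all names tested 57.4% were higher and 21.9% lower. No control read was held by 3 of the 23 and 17 of the 141, so these could not be lower.

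Muscle miRNAs were led by miR-1a-3p and miR-206-3p, which promote differentiation of myoblasts. miR-1a-3p was at 554751, 612195 and 537132 CPM in bait libraries A, B and C and 4915, 6935 and 5443 CPM in the control libraries. Every bait library lay above every control library, with a ratio of means of 98.5 and a log2 fold change of 6.63 ± 0.70, adjusted p = 2.82e-06. That standard error also takes in the spread of the undifferentiated eluates, where miR-1a-3p had 10 bait and 2 control reads. miR-206-3p was at 18141, 19543 and 19554 CPM in bait libraries A, B and C and 299, 275 and 244 CPM in the control libraries, again without overlap (6.08 ± 0.58, adjusted p = 1.13e-06). The input held both at more even levels, 7069 ± 609.6 and 1298 ± 175 CPM (SD, n = 3). Of the 8 names of the striated muscle list 6 were tested, 5 were higher and none was lower, with a median of 2.62, beside 57.4% higher and a median of 2.37 for all tested. With library totals 2 of the 6 were called higher. miR-133a-3p, which restrains serum response factor and supports myoblast growth, was at 11523, 12507 and 18319.6 CPM in bait libraries A, B and C and 1195, 1957 and 2843 CPM in the control libraries (2.87 ± 0.82, adjusted p = 0.00654). It lost its call with library totals, at 1.43 (adjusted p = 0.178), and with a pseudocount of 1, at 2.88 (adjusted p = 0.151). miR-133b-3p, which is encoded beside miR-206-3p and differs little in sequence from miR-133a-3p, was at 344, 317 and 529.7 CPM in bait libraries A, B and C and 299, 275 and 677 CPM in the control libraries, and the groups overlapped (0.016 ± 0.53, adjusted p = 0.976). Reads of the 2 miR-133 names may be split between them, as the handling of reads that match several names is not given in the sources used here. miR-486-5p and miR-3107-5p, names of paired hairpins whose reads may be shared and which are not independent, were higher (2.37 ± 0.41 and 2.27 ± 0.37) but not with library totals, at 0.92 (adjusted p = 0.134) and 0.82 (adjusted p = 0.172).

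**Figure D2:**
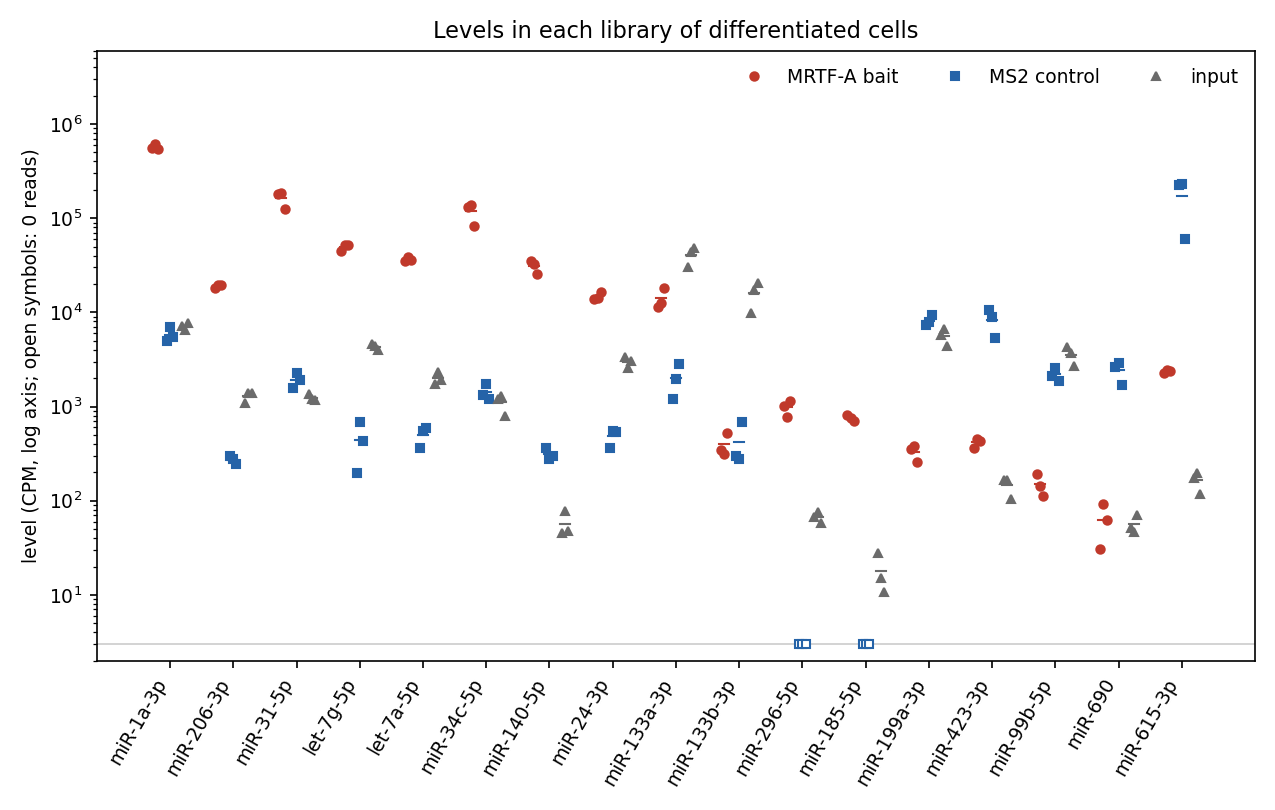
Levels of 17 miRNAs in each library of differentiated cells (CPM, log axis), with bait libraries as red circles, control libraries as blue squares, input libraries as grey triangles and a line at each mean; open symbols on the lowest line stand for 0 reads. miR-1a-3p lies at 537132 CPM or more in every bait library, miR-615-3p lies highest in the control, and miR-133b-3p overlaps between bait and control and is higher in the input.

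Among other miRNAs of muscle differentiation, 16 of 26 were tested, with 8 higher and 2 lower and a median of 1.08, beside 57.4% higher, 21.9% lower and a median of 2.37 over all tested. miR-31-5p, which represses Myf5 in satellite cells, was at 181537, 186715 and 126062 CPM in bait libraries A, B and C and 1561, 2266 and 1923 CPM in the control libraries (6.41 ± 0.41, adjusted p = 6.12e-08). It took 10.1, 10.3 and 8.00% of bait libraries A, B and C. For miR-214-3p, 710 bait reads stood against 1 control read, a pooled ratio of 94.3 with a 95% counting interval of 16.9 to 3730.4. miR-378a-3p, hosted by the metabolic coactivator gene Ppargc1b, was at 54173, 47465 and 55900.1 CPM in bait libraries A, B and C and 4151, 4291 and 8286 CPM in the control libraries (3.31 ± 0.37, adjusted p = 4.78e-06). miR-29a-3p, a repressor of collagen genes, was also higher (4.07 ± 0.97, adjusted p = 0.00204), with 0, 3 and 2 control reads. miR-26a-5p and miR-27b-3p passed at small values (1.13 ± 0.38 and 1.02 ± 0.31) and turned to -0.31 (adjusted p = 0.581) and -0.42 (adjusted p = 0.402) with library totals, and with RLE factors they did not pass, at 0.47 (adjusted p = 0.257) and 0.36 (adjusted p = 0.221). miR-199a-3p and miR-222-3p were lower (-4.60 ± 0.43 and -1.34 ± 0.43), and the second lost its call without bait library C, at -1.06 (adjusted p = 0.0586), or without control library B, at -1.05 (adjusted p = 0.0608). With library totals the list stood at 5 higher and 4 lower. miR-24-3p, a brake on the cell cycle, was at 14003, 14216 and 16643 CPM in bait libraries A, B and C and 365, 549 and 542 CPM in the control libraries (4.94 ± 0.43, adjusted p = 4.90e-07).

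The let-7 family, which restrains growth genes in differentiated cells, was higher with the bait in full. All 9 tested names of 10 in the list passed, from 2.63 to 6.96 with a median of 5.03, beside 57.4% higher and a median of 2.37 over all tested. All 9 passed under each of the 6 scalings and tools. let-7g-5p was at 45323, 52176 and 52305 CPM in bait libraries A, B and C and 199, 687 and 433 CPM in the control libraries (6.96 ± 0.57, adjusted p = 3.47e-07). let-7a-5p was at 35392, 39153 and 35729 CPM in bait libraries A, B and C and 365, 549 and 596 CPM in the control libraries (6.19 ± 0.34, adjusted p = 3.67e-08). let-7f-5p, the most abundant of them in the input at 23918 ± 3098 CPM, was at 134901, 154599 and 153840 CPM in bait libraries A, B and C and 3420.3, 4326 and 4901 CPM in the control libraries (5.14 ± 0.39, adjusted p = 2.06e-07). The lowest value was that of let-7d-5p, at 10995, 11637 and 10543 CPM in bait libraries A, B and C and 1328, 1614 and 2627 CPM in the control libraries (2.63 ± 0.33, adjusted p = 1.25e-05). No bait library of these 4 overlapped a control library. All 9 share the seed GAGGUAG, and their sequences differ by few bases, so reads may be split between the names. let-7j, whose registered sequence has another seed, was higher as well (4.75 ± 0.38).

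The miR-34 and miR-449 family, known as a p53 response that slows the cell cycle, was likewise higher in all 4 names tested of 6, and under each of the 6 scalings and tools. Over all names tested 57.4% were higher. miR-34c-5p was at 131854, 139437 and 82526 CPM in bait libraries A, B and C and 1328, 1751 and 1192 CPM in the control libraries (6.34 ± 0.37, adjusted p = 3.67e-08). miR-34a-5p was at 2376, 2439 and 1682 CPM in bait libraries A, B and C and 33.2, 68.7 and 54.2 CPM in the control libraries (5.16 ± 0.39, adjusted p = 1.95e-07). For miR-34b-5p, 2195 bait reads stood against 3 control reads, a pooled ratio of 97.2 (95% interval 33.2 to 472). miR-449a-5p had 0 control reads and 40, 28 and 13 bait reads, at least 1.18-fold higher, and could not be lower. In the input miR-34c-5p was at 1107 ± 270.1 CPM and miR-449a-5p at 0 reads.

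Other families held several higher members, beside 57.4% higher and 21.9% lower over all names tested. Members without a control read could not be lower. In the miR-130 and miR-301 family, which targets growth inhibitors, all 4 were higher, led by miR-130a-3p at 7686, 7476 and 7843 CPM in bait libraries A, B and C and 266, 240.3 and 298 CPM in the control libraries (4.79 ± 0.49, adjusted p = 2.43e-06). miR-130b-3p, without a control read, was at least 5.29-fold higher, and miR-301b-3p passed neither with library totals nor with edgeR or DESeq2. All 3 tested miR-378 names were higher, with miR-378d at 2.97 ± 0.39 and miR-378a-3p as given above. miR-378c had 185 bait reads and 0 control reads, at least 2.71-fold higher, and did not pass with DESeq2. Of miR-181, 3 of 4 were higher, where miR-181c-5p was at 0.63 ± 0.42, adjusted p = 0.188. With library totals 1 of the 4 miR-181 names passed. Of 2 tested names of the miR-17-92 cluster and its paralogs, a growth-promoting group, miR-92a-3p was at 0.69 ± 0.35, adjusted p = 0.0844 and miR-25-3p at 0.98 ± 0.81, adjusted p = 0.284. The 2 tested of the miR-15 and miR-16 family, which blocks cyclins, were miR-16-5p at -0.55 ± 0.67, adjusted p = 0.466 and miR-322-5p at -0.74 ± 0.68, adjusted p = 0.337, and both were called lower with library totals. No name of the Dlk1-Dio3 cluster passed the filter.

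**Figure D3:**
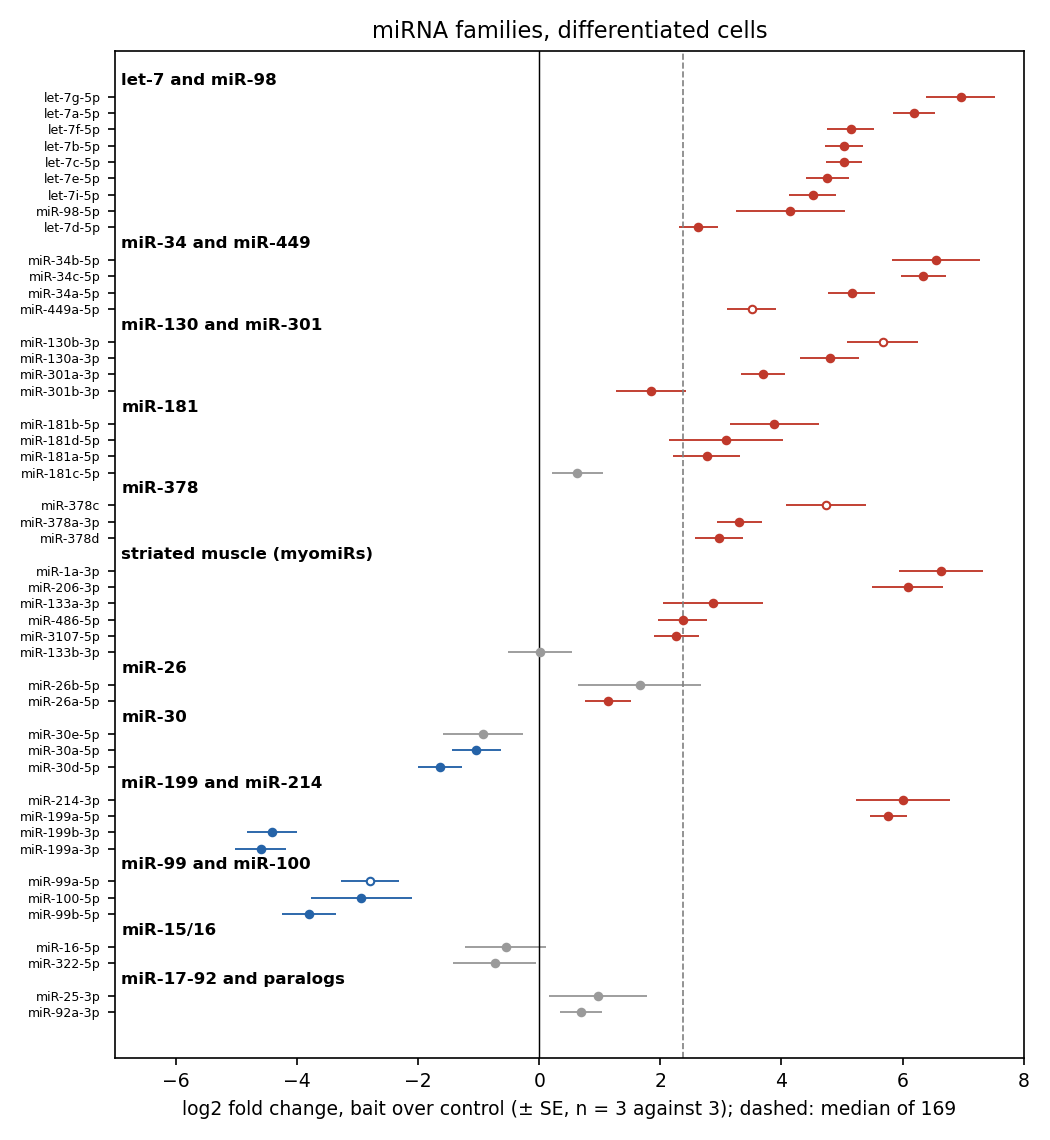
Log2 fold change of bait over control for the tested members of 12 lists, ± SE for 3 against 3 libraries. The spread was estimated over the 12 eluates of both states. Called members are in red or blue and others in grey, with open symbols where one side had 0 reads. The dashed line is the median of the 169 tested. The let-7, miR-34 and miR-130 families lie to the right of 0 in full, and the miR-99 family lies to the left.

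Over the 137 names (81.1% of those tested) with a sequence in the tables there were 108 seeds, and 17 seeds were shared by 2 or more names. Of these 17, 6 were higher in every member, 2 were lower in every member, and none held members called in both directions. Over all names tested 57.4% were higher and 21.9% lower. One of the 6, GAUAUGU of miR-190a-5p and miR-190b-5p, had no control read in either member, so both had to be higher. AGUGCAA and GGCAGUG, also among the 6, each held 1 member without a control read, miR-130b-3p and miR-449a-5p. One of the 2 lower seeds, CAGUAGU, is that of miR-199a-3p and miR-199b-3p, which have the same sequence and so are 1 measurement. The other, ACCCGUA, held miR-99a-5p, which had no bait read and could not be higher. As a description of composition, the median GC content was 47.6% in the 76 higher and 55.0% in the 29 lower, and U was the first base of 47.4% and 24.1% of them, beside 42.3% of all 137. Across the 137, GC content and log2 fold change had r = -0.27 and rho = -0.28, again as a description.

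Several of the largest values rested on names with few control reads. miR-140-5p, a miRNA with a role in cartilage, was at 35479, 32873 and 25782 CPM in bait libraries A, B and C and 365, 275 and 298 CPM in the control libraries (6.60 ± 0.52, adjusted p = 2.62e-07), with 30 control reads in all. miR-296-5p had 232, 230 and 225 bait and 0 control reads, at least 10.3-fold higher. miR-185-5p had 186, 229 and 137 bait and 0 control reads, at least 8.03-fold higher. These bounds are set by the depth of the control. miR-210-3p, the miRNA of the hypoxia response, showed 970 bait against 3 control reads, pooled 43.0-fold (95% interval 14.7 to 209). miR-28a-5p showed 1180 against 2, pooled 78.4-fold (95% interval 21.6 to 648). miR-374b-5p was at 2328, 2355 and 2798 CPM in bait libraries A, B and C and 0, 137 and 54.2 CPM in the control libraries (5.78 ± 0.81, adjusted p = 3.61e-05).

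Bait library C stood apart in 4 names, chosen after their values were seen as those with at least 100 reads in A and B and a level more than 5-fold lower in C. In the order A, B and C, miR-221-5p held 758, 943 and 11 bait reads, with none in the control, at least 22.9-fold higher over the group. miR-182-5p held 758, 1028 and 25, miR-351-5p 184, 236 and 3 and miR-5099 1167, 1857 and 116. Without library C, miR-182-5p was at 3.18 (adjusted p = 0.00214) and miR-351-5p at 3.57 (adjusted p = 0.0182), against 1.65 ± 1.07, adjusted p = 0.179 and 1.91 ± 1.38, adjusted p = 0.222 with it. With all libraries kept, miR-182-5p was called higher by edgeR, at 2.29 (adjusted p = 0.0177), and by DESeq2, at 2.27 (adjusted p = 0.0124). miR-221-5p was at 6.47 ± 1.36, adjusted p = 8.62e-04 with library C and 8.34 (adjusted p = 2.84e-05) without it.

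The mouse names lower with the bait were led by miR-615-3p, encoded in an intron of Hoxc5 (chr15:103014969-103014990 (plus strand)). It was at 2249.6, 2442 and 2356 CPM in bait libraries A, B and C and 226069, 232495 and 59521 CPM in the control libraries, so control library C held less of it than A and B but still far more than the bait (-5.96 ± 0.45, adjusted p = 2.06e-07). In the input it was at 164 ± 41.4 CPM, below both kinds of eluate. miR-690, a name within an intron of Fgf12, was at 30.5, 93.3 and 61.7 CPM in bait libraries A, B and C and 2623, 2918 and 1706 CPM in the control libraries (-5.14 ± 0.46, adjusted p = 6.09e-07). miR-423-3p, encoded in an intron of Nsrp1 (chr11:77078086-77078108 (minus strand)), was at 366, 453 and 427 CPM in bait libraries A, B and C and 10659, 8926 and 5362 CPM in the control libraries (-4.24 ± 0.35, adjusted p = 3.59e-07). For these 3 the input level was also below that of the control, by their means of 164, 56.5 and 146 CPM. miR-99b-5p differed in that respect, with 4236, 3747 and 2675 CPM in input libraries A, B and C, 192, 143 and 113 CPM in the bait and 2125, 2575 and 1868 CPM in the control (-3.80 ± 0.44, adjusted p = 6.67e-06). All 3 of the miR-99 and miR-100 family, which is known to restrain mTOR, were lower under each of the 6 scalings and tools, and they share the seed ACCCGUA. Over all names tested 21.9% were lower. miR-99a-5p had 0 bait reads and 8 control reads, at least 5.97-fold lower, and miR-100-5p was at -2.94 ± 0.83, adjusted p = 0.00605. With control library C alone on that side miR-100-5p was at -2.22, in a fit that also left out undifferentiated control library A. miR-1195 was at 13.1, 26.7 and 5.14 CPM in bait libraries A, B and C and 199, 343 and 352 CPM in the control libraries (-3.68 ± 0.64, adjusted p = 1.82e-04), without overlap. In the miR-30 family, abundant in muscle, miR-30d-5p (-1.64 ± 0.36) and miR-30a-5p (-1.04 ± 0.40) were lower and miR-30e-5p was at -0.93 ± 0.65, adjusted p = 0.212. miR-30e-5p was called lower with library totals, at -2.24 (adjusted p = 0.02), with RLE factors, at -1.52 (adjusted p = 0.0492), and without control library B, at -1.53 (adjusted p = 0.0414). The call of miR-30a-5p was lost without bait library C, at -0.79 (adjusted p = 0.116), without control library B, at -0.71 (adjusted p = 0.14), without control library C, at -0.94 (adjusted p = 0.082), and with TMM factors of the eluates, at -1.02 (adjusted p = 0.0522).

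All 5 human-named entries tested were lower with the bait, 3 of them without overlap. Over all names tested 21.9% were lower, and 20.7% had the control higher without overlap. Of the 5, 2 had no bait read and could not be higher. hsa-miR-6509-3p had 111, 104 and 11 reads in control libraries A, B and C and 0, 1 and 2 in the bait, pooled 567-fold lower (95% interval 192 to 2771). hsa-miR-6514-5p had 16, 12 and 1 control reads and 0 bait reads, at least 25.2-fold lower. These reads lay mainly in control libraries A and B, the 2 with the larger share of human-named reads, and the part of that share in these values was not tested. With control library C alone on that side the median log2 fold change over the 169 names was 1.93, and with A and B alone 2.56. The first of these fits also left out undifferentiated control library A, and the second undifferentiated control libraries B and C. Both fits were chosen with the libraries' shares known, and a single library is assumed to vary like the other groups. Without differentiated control library C only, 100 names were higher and 33 lower.

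The 2 arms of a hairpin did not always go the same way. Of 18 hairpins with both arms tested, 7 had both arms higher, 2 both lower, 3 had arms called in opposite directions, 4 had 1 arm called and 2 neither. Over all names tested 57.4% were higher and 21.9% lower. The miR-199a hairpin lies opposite an intron of Dnm3 and within an exon of Dnm3os, with its 5p arm at chr1:162217844-162217866 (plus strand) and its 3p arm at chr1:162217883-162217904 (plus strand) for Mir199a-2 (GRCm38), 1 of 2 miR-199a loci. The 3p sequence is also that of miR-199b-3p from Mir199b on chr2. Reads of that locus may therefore count in the 3p level and in the arm ratio. The 5p arm of miR-199a was at 47124, 45393 and 44919.6 CPM in bait libraries A, B and C and 830.2, 755 and 921 CPM in the control libraries (5.76 ± 0.31, adjusted p = 3.67e-08). Its 3p arm was at 353, 383 and 257 CPM in bait libraries A, B and C and 7372, 7931 and 9261 CPM in the control libraries (-4.60 ± 0.43, adjusted p = 8.85e-07), so both arms were without overlap and went in opposite directions. The log2 ratio of 5p to 3p was 7.09 ± 0.28 with the bait, -3.28 ± 0.13 with the control and -3.60 ± 0.12 in the input (SD, n = 3). The 3p arm was thus the larger in control and input, and the 5p arm in the bait eluate. For miR-140 the ratio was 7.61 ± 0.53 with the bait, 0.22 ± 0.37 with the control and -5.22 ± 0.41 in the input, while its 3p arm was at -0.79 ± 0.40, adjusted p = 0.0874. That arm was called lower with library totals, at -2.16 (adjusted p = 0.0023), and with RLE factors, at -1.41 (adjusted p = 0.00705), so that the arms of miR-140 were then called in opposite directions too. miR-378a went the opposite way, its 5p arm lower (-2.50 ± 0.52) and its 3p arm higher (3.31 ± 0.37), with a ratio of -9.52 ± 0.17 with the bait, -3.71 ± 0.51 with the control and -6.37 ± 0.14 in the input. In miR-30a the 5p arm was lower (-1.04 ± 0.40, with the limits given above) and the 3p arm higher (2.13 ± 0.57), the latter not with library totals, at 0.73 (adjusted p = 0.368). The ratio within a library does not depend on its scaling beyond the pseudocount. By the exact 2-sided permutation test over 6 libraries, miR-199a, miR-140, miR-378a and miR-30a each had p = 0.1, the smallest value that 3 against 3 allows, as did 10 of the 18 hairpins in all.

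**Figure D4:**
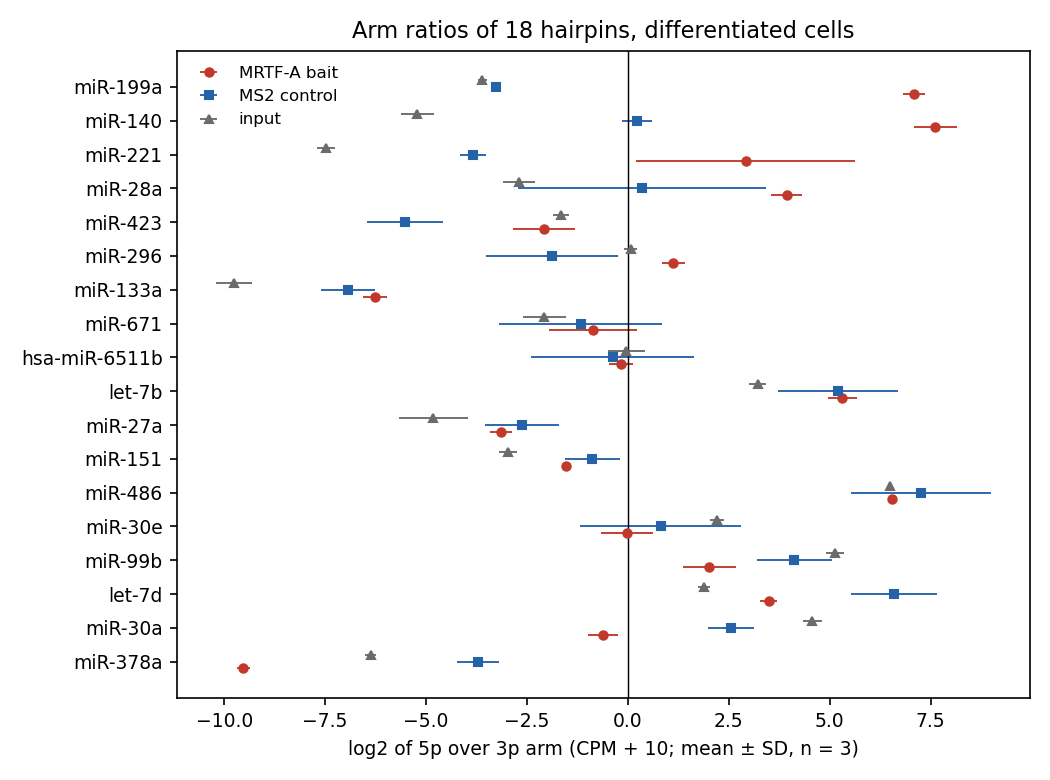
Log2 ratio of the 5p to the 3p arm (CPM + 10, mean ± SD, n = 3) for the 18 hairpins with both arms tested, with bait as red circles, control as blue squares and input as grey triangles. miR-199a and miR-140 lie near 7 with the bait, while miR-199a in control and input lies below -3, and miR-378a lies further left with the bait than with the control.

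Neighbouring miRNA genes could differ in direction as well. Among 16 loci where names tested lie within 10000 bases on 1 strand, 7 had every name higher, none had every name lower, and 4 held calls in both directions. Over all names tested 57.4% were higher and 21.9% lower. miR-181a-5p, miR-181b-5p, let-7f-5p, let-7c-5p and miR-24-3p each count at more than 1 locus, so the loci are not separate results. Some members had no read on one side, so their direction was fixed. These were miR-99a-5p, without a bait read, and miR-221-5p, miR-296-5p and let-7f-2-3p, without a control read. The loci of miR-99a-5p and miR-221-5p are among the 4. On chr16, Mir99a (77598940-77598961) and Mirlet7c-1 (77599672-77599693) are neighbours, and miR-99a-5p was lower while let-7c-5p was higher (5.03 ± 0.29). At chr17, Mir99b and Mirlet7e lie in an intron of Spaca6, with miR-99b-5p at -3.80 ± 0.44 and let-7e-5p at 4.76 ± 0.35. let-7c-5p also comes from a second locus on chr15, so its reads cannot be assigned to one of them. At chr1, Mir206 and Mir133b are neighbours with 6.08 ± 0.58 and 0.016 ± 0.53. At chr6, miR-183-5p was higher (5.64 ± 0.47, adjusted p = 3.59e-07) beside miR-182-5p, whose values are given above. At chr8, miR-24-3p was higher beside miR-23a-3p (-0.44 ± 0.44, adjusted p = 0.375) and miR-27a-3p (0.41 ± 0.38, adjusted p = 0.338). miR-24-3p also has a copy on chr13 beside miR-27b-3p.

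Seed matches were searched in the annotated 3'UTR of Mrtfa (GRCm38, chr15:81012281-81013284, minus strand, exon 14 of ENSMUST00000149582.7 in GENCODE vM21), which is 1004 bases long with 52.0% GC. On the sense strand alone, an 8mer is a match to bases 2 to 8 followed by A, a 7mer-m8 a match to bases 2 to 8, and a 7mer-A1 a match to bases 2 to 7 followed by A. The search gave 23 sites for 22 of the 137 miRNAs at 21 positions, some of them overlapping. Of the 22 with a site, 16 (72.7%) were higher and 3 lower, and of the 115 without one, 60 (52.2%) were higher and 26 lower. Over all names tested 57.4% were higher and 21.9% lower. Among the 16, let-7f-2-3p and miR-296-5p had no control read and could not be lower. The same holds for some names without a site, such as miR-190a-5p. miR-296-5p and miR-296-3p, both among the 16, come from 1 hairpin. The median log2 fold change was 3.82 with and 1.91 without a site, or 3.41 and 1.13 with names of 0 reads at their bound. For 8mers alone the order was the other way, with 2 names, miR-129b-3p (-2.89 ± 0.48, adjusted p = 1.42e-04) and miR-188-5p (0.66 ± 0.41, adjusted p = 0.162). No test was made of these counts, and a match is a description, not a bound site.

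The sites of the names with large or opposing values are shown 5′ to 3′ in GRCm38 with the match in capitals in windows of 22 or 25 bases. The miR-31-5p match ends at the last base of the annotated UTR.
miR-206-3p site, chr15:81012495-81012519: actctccactcacccACATTCCgtc
miR-31-5p site, chr15:81012281-81012302: aaacaaaaacactgaCTTGCCA
miR-296-5p site, chr15:81013091-81013115: tcaagaaacaaatctGGGCCCAttc
miR-374b-5p site, chr15:81012811-81012835: tatatacctctatatTATTATAtat
miR-3103-3p site, chr15:81013241-81013265: cgctagggaagggtcAGAGGTTggg
let-7j site, chr15:81012823-81012847: tctgtatagatgtatATACCTCtat
miR-27b-3p site, chr15:81013196-81013220: gtgtacgctcctgtgACTGTGAgcc
miR-21a-5p site, chr15:81013114-81013138: ctgtgggcagtgggcATAAGCTgtc
miR-129b-3p site, chr15:81012989-81013013: gttttttgcctaggTGGGCTTAtag
Of 10149 mouse genes with a 3'UTR of at least 1004 bases, the first 1004 bases held ACATTCC, the miR-206-3p match, in 7.40%. The shares were 8.23% for CTTGCCA (miR-31-5p), 6.29% for GGGCCCA (miR-296-5p), 9.87% for TATTATA (miR-374b-5p) and 7.63% for AGAGGTT (miR-3103-3p). They were 4.17% for ATACCTC (let-7j), 12.7% for ACTGTGA (miR-27a-3p and miR-27b-3p), 4.68% for ATAAGCT (miR-21a-5p) and 1.36% for the 8mer TGGGCTTA (miR-129b-3p). miR-3103-3p was at 14784, 11977 and 6748 CPM in bait libraries A, B and C and 133, 652 and 298 CPM in the control libraries (5.11 ± 0.80, adjusted p = 8.65e-05). Input libraries A, B and C held 0, 0 and 1 reads of miR-3103-3p, and the source of its reads in the bait was not tested. miR-27a-3p, with the same match as miR-27b-3p, was at 0.41 ± 0.38, adjusted p = 0.338, and miR-21a-5p was lower although its match is present. No member with the let-7 seed GAGGUAG, and neither miR-34a-5p, miR-34b-5p nor miR-24-3p, had an 8mer or 7mer in this UTR, while all of them were called higher. This says only that these letters are not in the annotated window, and the bait itself may differ from it.

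The bait effect was compared with that in undifferentiated cells, where 102 of the 169 names (60.4%) were called, 73 higher (43.2%) and 29 lower (17.2%), against control libraries of their own. Over the 169 names the 2 effects had r = 0.86 and rho = 0.87, as a description across miRNAs scaled together by the authors. A test of the difference between the effects (limma, interaction contrast) called 22 names (13%), with 14 (8.28%) larger in differentiated cells and 8 (4.73%) smaller. edgeR called 0, with 40 at an unadjusted p under 0.05, and DESeq2 called 8 larger and 6 smaller. miR-1a-3p was at 1.22 ± 0.70 in undifferentiated cells, where it had 10 bait and 2 control reads, a difference of 5.41 ± 0.99, adjusted p = 0.00761. It had 0 reads in undifferentiated input, so this difference does not separate a changed retention from a miRNA that was nearly absent. miR-31-5p went the other way, at 8.77 ± 0.41 in undifferentiated cells, a difference of -2.35 ± 0.58, adjusted p = 0.0235. miR-22-3p was lower with the bait in undifferentiated cells (-1.01 ± 0.30) and higher in differentiated cells, with the limits given above, a difference of 2.05 ± 0.43, adjusted p = 0.0139.

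**Figure D5:**
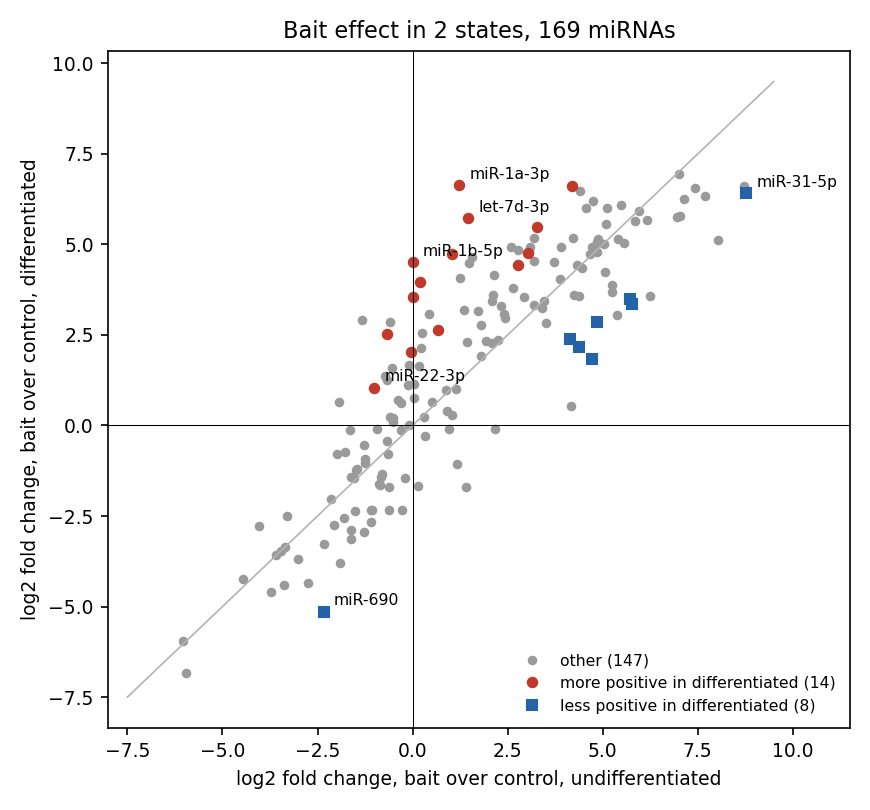
Log2 fold change of bait over control in differentiated (vertical axis) against undifferentiated cells (horizontal axis) for 169 miRNAs, with 14 called more positive in differentiated cells in red, 8 called less positive in blue, and the line of equal effects in grey. miR-1a-3p lies far above the line, and miR-31-5p and miR-690 lie below it.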

How the data were processed

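Small RNA of C2C12 cells was sequenced in 50 bp reads. Per the submitters' processing notes, edgeR 3.18.1, featureCounts 1.4.6, Bowtie2 2.0.13 and cutadapt 1.4.2 were used with GRCm38 (mm10). The sources used here do not give settings, strand use or the treatment of multiply matching reads. The deposited signal is a normalised CPM made by the authors. Each value was a whole multiple of 1 unit per library, so whole reads were recovered (100% of values within 0.01 read), and effective library sizes followed from them. The authors' deposited table also gives their log2 fold changes, p-values and FDR values, per the file headers.

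The plan named limma with a trend for normalised values. limma 3.58.1 (R 4.3.3) was fitted on log2(CPM + 10) to the 12 eluates of both states by group means, for names kept by filterByExpr. The 6 scalings and tools named are this fit, the same with library totals, RLE factors or TMM factors of the eluates, and edgeR 4.0.16 and DESeq2 1.42.0 on the recovered reads. edgeR called 133 names on these reads. Other alternatives were pseudocounts of 1 and 50, no filter, the 6 eluates alone and each library left out. Python 3.11.15 with pandas 2.3.3, scipy 1.17.1 and matplotlib 3.10.9 made tables and figures. On simulated data with 200 changed names (164 names tested), 15 of 27 changed by 2 on the log2 scale and 11 of 16 changed by 3 were recovered in this comparison. Of 121 unchanged names, 1 was called. The simulation drew changes of both signs at a dispersion of 0.25 and gave the fit the library sizes used to draw the reads. It therefore cannot show false calls that come from the scaling.

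Named miRNAs were the 15 largest rises and 10 largest falls that passed 0.05, had groups without overlap and reached a mean of 50 CPM, the 5 most abundant of each side, members of 29 lists, hairpins with opposed arms, names with a site and the called differences between states. Members, lists and this rule were chosen with earlier results of these data known. Mature sequences and positions are from RefSeq (GRCm38.p6), where 137 of 169 names matched, and UTRs and host genes from GENCODE vM21.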

Additional observations from a re-analysis of the deposited data

Results flagged for a closer look

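The bait effect differed between differentiated and undifferentiated cells for 22 miRNAs by the interaction contrast of limma. Values are the log2 fold change in differentiated cells minus that in undifferentiated cells. The 14 differences above 0 were 5.41 for miR-1a-3p, 4.52 for miR-1b-5p, 4.27 for let-7d-3p, 3.78 for miR-1839-5p, 3.69 for miR-378c, 3.54 for miR-133a-5p, 3.20 for miR-320-3p, 2.41 for miR-296-5p, 2.20 for miR-190b-5p, 2.09 for miR-151-3p, 2.05 for miR-22-3p, 1.95 for let-7d-5p, 1.72 for let-7e-5p and 1.65 for let-7f-2-3p. The first of these, miR-1a-3p, kept its call in 20 of 22 alternatives, miR-1b-5p in 21 and miR-22-3p in 20. In undifferentiated cells miR-1a-3p had 10 bait, 2 control and 0 input reads, so its effect there rests on few reads. The miR-1b hairpin is transcribed opposite a miR-1a hairpin, so without strand information reads of these 2 names cannot be separated. miR-1b-5p and miR-133a-5p had 0 reads in both undifferentiated eluate groups, so their undifferentiated effect is 0 by construction. miR-378c, miR-190b-5p and let-7f-2-3p had 0 control reads in both states, so that their values rest on the bait reads alone.

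The 8 differences below 0 were -1.74 for miR-669o-5p, -1.99 for miR-671-5p, -2.22 for miR-449a-5p, -2.23 for miR-466p-3p, -2.35 for miR-31-5p, -2.42 for miR-3074-5p, -2.80 for miR-690 and -2.87 for miR-301b-3p. For miR-690 the bait effect was below 0 in both states, at -2.34 in undifferentiated cells. For the other 7 it was above 0 in both. miR-449a-5p, miR-466p-3p, miR-669o-5p and miR-671-5p likewise had 0 control reads in both states. miR-301b-3p kept its call in 7 of 21 alternatives and let-7e-5p in 6 of 22. Over all 22 and all alternatives, 311 of 474 values kept their call, 163 lost it and 0 changed sign.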

How the results depend on the processing

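Over 117 named miRNAs and 17 alternatives, 1892 of 1989 values kept direction and side of the threshold, 64 lost the call, 28 gained it and 5 reversed; 81 miRNAs kept both in all alternatives run. The 5 reversals came with library totals: miR-26a-5p at -0.31, miR-27b-3p at -0.42, miR-151-5p at -0.022, miR-143-3p at -1.24 and miR-22-3p at -0.40. Names higher with the bait numbered 97, 149 of 1151 tested without the filter, 94 to 100 without 1 differentiated eluate and 97 to 98 without 1 undifferentiated one; names lower numbered 37, with 31 to 36 and 35 to 38. Larger effects in differentiated cells numbered 14, and 7 with a pseudocount of 1, 22 with 50, 2 without the filter, 9 with library totals, 0 with edgeR and 8 with DESeq2; smaller ones numbered 8, and 4, 16, 0 and 5 under the first 4 of these, 21 with RLE factors and 0 with edgeR. Leaving out 1 library gave 4 to 18 and 2 to 11. The lowest of each came without differentiated bait library B, and without A or C the larger ones numbered 9. The smaller ones numbered 5 without differentiated bait library C, differentiated control library B or undifferentiated control library C. The difference of medians with and without a seed site was 1.91, -3.88 for 8mers alone, and 1.45 (without bait library C) to 2.38 (without control library B) with 1 library left out. With a pseudocount of 1, the arm ratio differences of hsa-miR-6511b and let-7b turned to -1.37 and -2.18 from 0.21 and 0.10. The cause of these changes was not tested. No paired analysis was possible because the columns do not carry the replicate numbers of the labels, and a column ending was used only to name a library. The control's 15562 to 23433 reads limit what can be seen: 3 reads per library are 94.6 CPM there and 12.8 CPM in the bait.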
